A study of Homo sapiens with 6 samples.

Results

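The mRNA of the nuclear-encoded subunits of oxidative phosphorylation was examined in HT1080 cells, an established human fibrosarcoma line, with and without IFNβ. The genes were chosen by symbol: the NDUFA, NDUFAB, NDUFB, NDUFC, NDUFS and NDUFV genes of complex I, SDHA to SDHD of complex II, the UQCR genes and CYC1 of complex III, the COX4 to COX8 genes of complex IV, and the ATP5 genes of complex V. A mean of at least 1 FPKM (fragments scaled by the exon length of the gene and by the fragments of the library) over the 6 libraries was also required. Of the 62710 genes in the table, 85 were protein-coding with a matching symbol, and 75 of these passed the limit. They comprised 34 genes of complex I, 4 of complex II, 10 of complex III, 10 of complex IV and 17 of complex V. NDUFA4 was counted with complex IV, where its protein sits.

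HT1080 cells were left untreated (3 libraries) or treated with 20 ng/mL human IFNβ for 24 h (3 libraries), as the labels give it; the RNA sequencing methods of the study name mouse IFNβ. The groups differ in this treatment alone as far as the labels say, and no label says whether the libraries of a group came from separate cultures. The study's methods speak of biological replicates for its in vitro work in general, without naming these libraries, so p-values measure the spread between these samples, which may in part be technical. The libraries held between 22785720 and 32825849 fragments. The interferon-stimulated genes IFIT1, MX1, ISG15 and OAS1, taken as a check of the treatment, rose in the IFNβ-treated libraries, with log2 fold changes from 6.39 to 8.67. Of 6 mesenchymal markers all were expressed, whereas the 3 epithelial and 4 blood markers averaged under 0.1 FPKM.

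Oxidative phosphorylation moves electrons through complexes I to IV of the inner mitochondrial membrane. Complexes I, III and IV pump protons, and complex V, the ATP synthase, makes ATP from the gradient. Complex II takes electrons from succinate and is also an enzyme of the citrate cycle. All its subunits are encoded in the nucleus, whereas the other 4 complexes combine nuclear subunits with a few that are encoded in mitochondrial DNA.

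Subunit mRNAs were lower after IFNβ by small amounts, and those of complexes II, III and V most often. By limma on log2(FPKM + 0.1), with Benjamini-Hochberg adjustment over the 20716 genes tested and no minimum fold, 31 of the 75 genes (41.3%) were lower at an adjusted p under 0.05, beside 17.5% of all genes tested. None of the 75 was higher by limma, beside 15.2% of all genes, and none was higher at an unadjusted p under 0.05. By limma-voom on recovered fragments, 36 genes (48.0%) were lower, beside 20.2% of all genes, and none was higher, beside 18.1%. The log2 fold change was below 0 for 64 of the 75 genes (85.3%), against 50% of all genes. Their median was -0.11, while the median was 0.00 over all genes tested and -0.03 over those of at least 1 FPKM. The steepest fall was that of ATP5PB, with a log2 fold change of -0.54. No subunit gene reached an absolute log2 fold change of 1 with an adjusted p under 0.05, a size that 4.22% of all tested genes reached.

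Subunit genes are more highly expressed than most genes, and calls were more frequent among highly expressed genes in general. When limma was fitted to the genes of at least 1 FPKM alone, 35 of the 75 (46.7%) were lower, beside 30.9%, and none was higher, beside 22.8%. Among the 53 subunit genes with a mean of at least 10 FPKM, 27 (50.9%) were lower, beside 41.6% of the 4419 genes at that level. In a fit of those 4419 genes alone, 31 of 53 (58.5%) were lower, beside 45.5%, and none was higher, beside 24.5%. Of the 22 subunit genes between 1 and 10 FPKM, 4 (18.2%) were lower. Of all tested genes of at least 1 FPKM, which include more abundant ones, 28.3% were lower. The median log2 fold change was -0.13 for the 53 subunit genes and -0.07 for all genes of at least 10 FPKM. The lower quartile of the log2 fold change was -0.20 both for the 53 subunit genes and for all genes of at least 10 FPKM, whereas the upper quartile was -0.09 for the subunit genes and 0.09 for all genes. Log2 fold changes under -0.20 were thus about as common among abundant genes in general, whereas values above 0 were held by 5 of the 53 subunit genes.

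**Figure D1:**
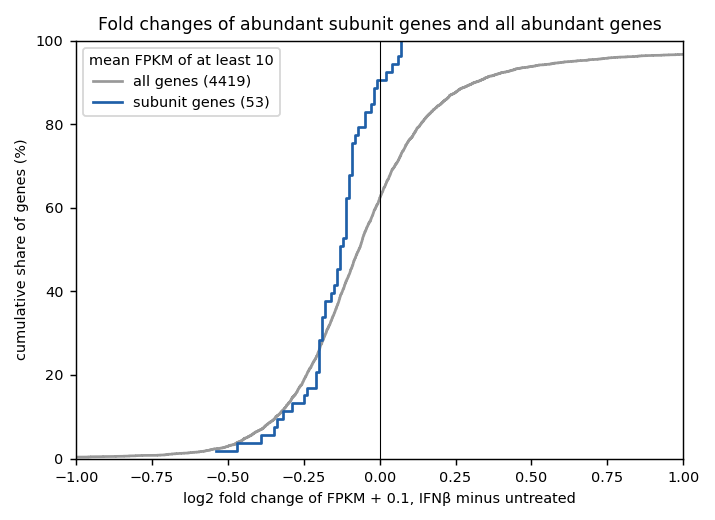
Cumulative share of genes (%) against the log2 fold change of FPKM + 0.1 (IFNβ minus untreated), for the 53 subunit genes and all 4419 genes with a mean of at least 10 FPKM. The curves lie together up to about the lower quartile (-0.20 in both), and above it the subunit genes reach 90.6% at 0 where all genes reach 62.4%.

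The libraries of the groups did not overlap for 37 of the 75 genes, all with lower values after IFNβ, beside 24.3% of all genes tested and 35.8% of those of at least 1 FPKM that were lower without overlap; 22.3% of all were higher. At a mean of at least 10 FPKM the corresponding numbers were 31 of 53 genes and 47.5%. The 75 genes together took 1.04% to 1.08% of the summed FPKM in the untreated libraries and 0.961% to 0.991% in the IFNβ-treated libraries. FPKM are shares of a library. As the RNA came from whole cultures, less RNA per cell and fewer cells expressing a gene cannot be told apart.

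**Figure D2:**
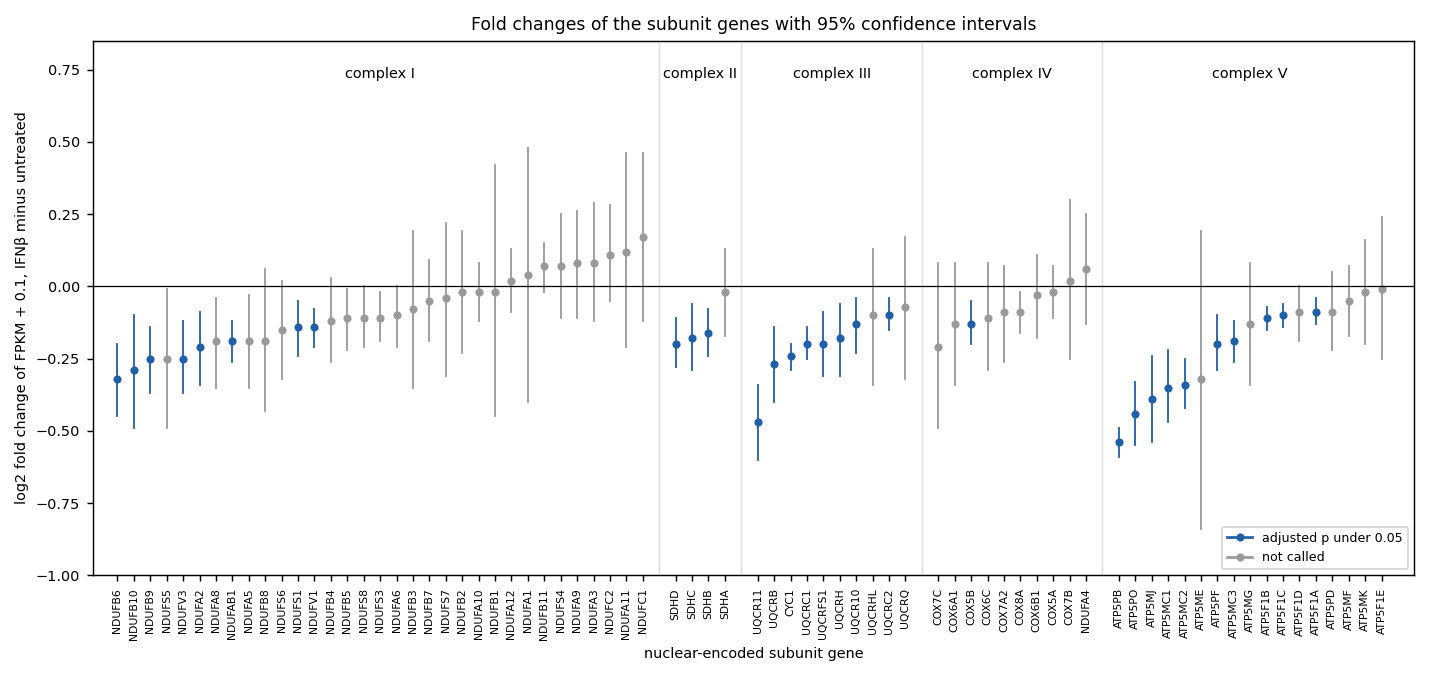
Log2 fold change of FPKM + 0.1 (IFNβ minus untreated) of 74 subunit genes, ordered within each complex; lines are 95% confidence intervals from limma and blue marks an adjusted p under 0.05. The called genes are all below 0, with ATP5PB lowest at -0.54, and complex IV holds only 1 of them.

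Untreated replicate 1 stood apart from the other untreated libraries in these genes. Its level was below the mean of the other 2 untreated libraries for 56 of the 75 genes, with a median log2 difference of -0.08, while over all genes of at least 1 FPKM the median was 0.00. The difference was -0.14 for the 20 subunit genes with a recovered exon length of at most 1500 bases and -0.05 for the 55 longer ones. Over all genes of at least 1 FPKM and at most 1500 bases it was -0.04. NDUFA1, a short accessory subunit gene of complex I, had the largest difference at -0.56. Without this library, 39 subunit genes were lower and 1, NDUFC2, was higher, and the median log2 fold change was -0.15. Leaving out any other library gave 24 or 25 lower subunit genes. Over all genes tested, leaving out 1 library in turn gave 3035 to 3259 lower and 2496 to 2785 higher genes. With all 6 libraries these numbers were 3625 and 3153. The part of untreated replicate 1 in the results was not tested further.

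**Figure D3:**
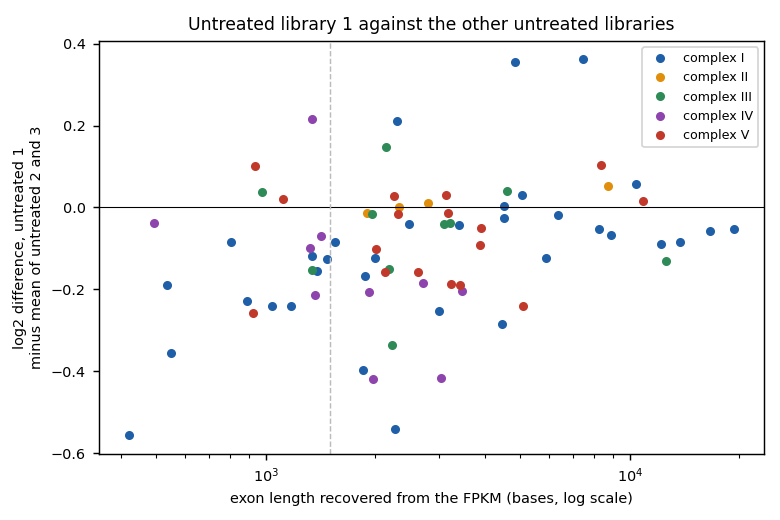
Log2 difference between untreated replicate 1 and the mean of untreated replicates 2 and 3 for each subunit gene, against its exon length as recovered from the FPKM (bases, log scale); colours mark complexes and the dashed line 1500 bases. Most genes lie below 0, and the lowest value (-0.56, NDUFA1) belongs to the shortest.

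The promoters of many respiratory genes are known to bind NRF1, the ETS factor GABP and YY1. RefSeq windows on GRCh38.p14, from 250 bases before to 50 bases after the start of a gene, were matched by symbol for 61 of the 75 genes. The NRF1 motif, shown as the first run of capitals in the SDHD sequence, was found on either strand in 4 of the 61 windows (6.56%), beside 1.52% of the 27305 genes with a window. The ETS motif CCGGAAG was found in 19 (31.1%), beside 12.2%, and the YY1 motif AANATGGCG in 15 (24.6%), beside 3.85%. The interferon-stimulated response element, searched as GAAA, any 2 bases and GAAA, was in 0 of the 61, beside 4.38% of all genes. Of the 61 genes, 24 were lower after IFNβ and 37 were not called, and the ETS motif was in 8 of the former and 11 of the latter. The corresponding numbers were 6 and 9 for YY1, and 2 and 2 for NRF1. The sequences of 150 bases that end just before the start are given for the gene of each complex with the lowest log2 fold change among those called lower that had a window, in lower case with any of these motifs in capitals.
NDUFB6, chr9:32573160-32573309, minus strand: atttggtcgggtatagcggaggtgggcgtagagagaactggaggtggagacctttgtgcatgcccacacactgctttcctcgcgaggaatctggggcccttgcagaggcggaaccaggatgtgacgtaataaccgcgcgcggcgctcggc
SDHD, chr11:112086723-112086872, plus strand: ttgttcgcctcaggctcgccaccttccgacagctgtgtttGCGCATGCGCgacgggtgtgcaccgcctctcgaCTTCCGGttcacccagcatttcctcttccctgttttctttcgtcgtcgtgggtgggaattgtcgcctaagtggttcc
UQCR11, chr19:1605463-1605612, minus strand: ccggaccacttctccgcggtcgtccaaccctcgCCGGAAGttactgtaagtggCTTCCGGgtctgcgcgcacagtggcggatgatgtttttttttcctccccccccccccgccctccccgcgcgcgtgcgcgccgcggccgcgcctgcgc
COX5B, chr2:97645912-97646061, plus strand: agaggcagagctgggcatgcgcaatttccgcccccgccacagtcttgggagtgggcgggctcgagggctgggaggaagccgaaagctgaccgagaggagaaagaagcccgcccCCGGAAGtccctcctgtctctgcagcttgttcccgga
ATP5PB, chr1:111449314-111449463, plus strand: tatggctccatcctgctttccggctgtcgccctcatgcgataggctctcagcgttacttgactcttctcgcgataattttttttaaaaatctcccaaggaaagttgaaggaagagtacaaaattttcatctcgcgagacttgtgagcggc
SDHD held the NRF1 motif 110 bases and an ETS motif 77 bases before its start. UQCR11 held ETS motifs 117 and 97 bases before its start and COX5B held one at 37 bases. The printed stretches of NDUFB6 and ATP5PB held none of the 4 motifs. The starts are those of RefSeq. GENCODE release 29 starts ATP5PB at 111448864, so its printed stretch lies inside the gene by that release. The same release starts SDHD at 112086773, within its printed stretch, so the ETS motif of SDHD lies inside the gene there. The last bases of the NDUFB6, UQCR11 and COX5B stretches also lie inside these genes by that release.

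Complex V held 10 lower genes of 17 (all tested genes: 28.3% at 1 FPKM or more, 41.6% at 10 FPKM or more). Its log2 fold changes lay between -0.54 and -0.01, and their median was -0.13. ATP5PB encodes subunit b of the peripheral stalk, which holds the catalytic head still against the turning rotor. The gene lies on chromosome 1, from 111448864 to 111462773 on the plus strand in GENCODE release 29. Its level was 70.9, 70.4 and 68.5 FPKM in untreated replicates 1 to 3 and 48.0, 47.5 and 48.6 FPKM in IFNβ replicates 1 to 3. Every IFNβ-treated library was far below every untreated one, and the libraries of a group were close together. The mean fell by 31.3%, from 70.0 ± 1.247 to 48.0 ± 0.577 FPKM (S.D., n = 3), with a log2 fold change of -0.54 (95% confidence interval -0.59 to -0.49, limma adjusted p = 8.38e-06). Of the exon bases of ATP5PB, 10.3% overlap WDR77 on the other strand, whose log2 fold change was -0.27 (limma adjusted p = 0.00129). The sources do not state whether fragments were counted by strand, so reads of the overlap cannot be assigned to either gene.

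ATP5PO, the stalk subunit that joins the stalk to the head (OSCP), was at 5.83, 5.76 and 5.9995 FPKM in the untreated libraries and at 4.46, 4.05 and 4.37 FPKM after IFNβ. The groups did not overlap, and the log2 fold change was -0.44 (95% confidence interval -0.55 to -0.33, limma adjusted p = 0.000685). Of the exon bases of ATP5PO, 19.6% overlap AP000311.1 on the same strand and 8.99% overlap LINC00649 on the other. ATP5PF, subunit F6 of the stalk, fell as well (log2 fold change -0.20), whereas ATP5PD, subunit d, was at -0.09 with an adjusted p of 0.314 in limma. In the stalk 3 of 4 genes were lower (all tested genes: 28.3% at 1 FPKM or more, 41.6% at 10 FPKM or more). Its median log2 fold change was -0.32.

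ATP5MC1, ATP5MC2 and ATP5MC3 encode the same mature c subunit, the protein that forms the rotor ring, from separate genes that differ in their import sequences. All 3 fell. ATP5MC1 was at 17.9, 19.2 and 20.7 FPKM in the untreated libraries and at 15.0, 14.9 and 15.4 FPKM after IFNβ. ATP5MC2 was at 21.2, 21.6 and 22.3 FPKM and then at 16.4, 17.7 and 17.4 FPKM. ATP5MC3 was at 43.5, 47.0 and 45.8 FPKM and then at 39.5, 39.9 and 40.0 FPKM. The groups did not overlap for any of these genes. The log2 fold changes were -0.35 ± 0.053, -0.34 ± 0.036 and -0.19 ± 0.030 (S.E.), with limma adjusted p-values of 0.00335, 0.000742 and 0.00408. The summed FPKM of the 3 genes was 86.4 ± 3.31 in the untreated libraries and 72.1 ± 1.05 after IFNβ (S.D., n = 3), a difference of -16.5%. ATP5MC3 made up 0.526 ± 0.00969 of this sum in the untreated libraries and 0.553 ± 0.00406 after IFNβ, where its proportion was higher in each IFNβ-treated library than in any untreated one.

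**Figure D4:**
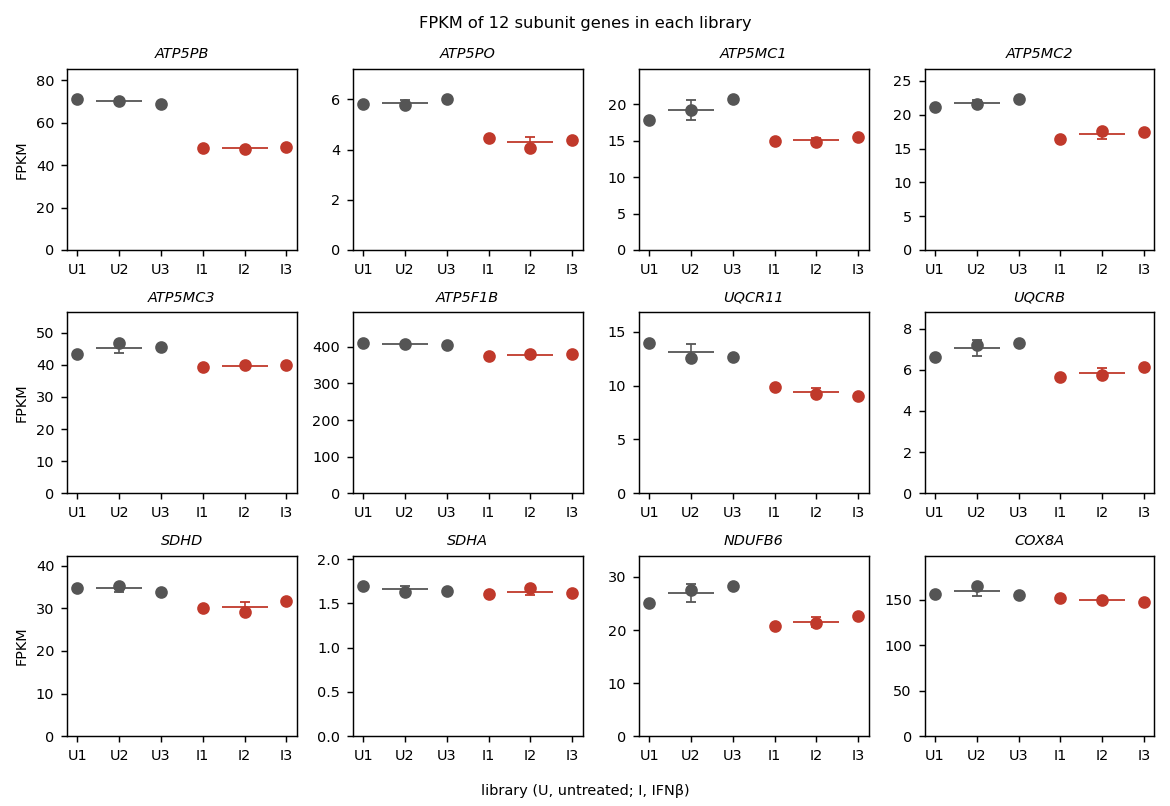
FPKM of 12 subunit genes in each library (U, untreated replicates 1 to 3; I, IFNβ replicates 1 to 3), with each axis from 0; horizontal marks are means and bars S.D. (n = 3). ATP5PB, ATP5PO and UQCR11 show the widest gaps between groups, and the groups of SDHA overlap.

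In the catalytic head of the ATP synthase 3 of 5 genes were lower, beside 41.6% of all tested genes of at least 10 FPKM. The median log2 fold change of the head was -0.09. ATP5F1B, the catalytic β subunit, had the highest level of all 75 genes, at 412, 408 and 405 FPKM in the untreated libraries and 375, 380 and 381 FPKM after IFNβ. Its groups did not overlap, and its log2 fold change was -0.11 (95% confidence interval -0.15 to -0.07, limma adjusted p = 0.00326). The direction for ATP5F1B depended on the scaling, since quantile normalization gave a log2 fold change of 0.08 (limma adjusted p = 0.0275). ATP5F1A and ATP5F1C, the α and γ subunits, fell by 0.09 and 0.10 on the log2 scale. The call of ATP5F1A was lost with equal FPKM totals, with median ratio scaling and without intensity trend (limma adjusted p of up to 0.128). That of ATP5F1C was lost without intensity trend (limma adjusted p = 0.0683). ATP5F1E, the ε subunit, was at 9.04, 9.97 and 11.5 FPKM and then at 9.54, 9.63 and 11.1 FPKM, with overlapping groups and a log2 fold change of -0.01 (95% confidence interval -0.25 to 0.24).

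Within a library, the ratio of ATP5PB to ATP5F1B does not depend on the scaling by depth. It was 0.172, 0.173 and 0.169 in untreated replicates 1 to 3, against 0.128, 0.125 and 0.128 in the treated ones, a difference of the means of -25.9%. The ratio of the summed c subunit genes to ATP5F1B went from 0.212 ± 0.00992 to 0.190 ± 0.00121 (S.D., n = 3). These pairs were chosen after their values were seen, so the ratios are a description without a test.

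Of the other membrane subunits of complex V, ATP5MJ fell, with a log2 fold change of -0.39 (limma adjusted p = 0.00369). ATP5ME, at -0.32, had a 95% confidence interval from -0.84 to 0.19, and rested on as few as 58 fragments in a library. ATP5MK was at 54.0, 63.4 and 65.8 FPKM and then at 58.4, 59.0 and 62.1 FPKM, so that untreated replicate 1 was the lowest of the 6 libraries.

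Complex III held 8 lower genes of 10 (all tested genes: 28.3% at 1 FPKM or more, 41.6% at 10 FPKM or more). Its median log2 fold change was -0.19, and all 10 were below 0. UQCR11, a small accessory subunit, lies on chromosome 19 from 1597172 to 1605490 on the minus strand. Of its exon bases, 10.9% overlap AC005943.1 on the same strand. UQCR11 was at 14.0, 12.6 and 12.6 FPKM in the untreated libraries and at 9.88, 9.23 and 9.05 FPKM after IFNβ. The groups did not overlap, and the mean fell by 28.3% (log2 fold change -0.47, 95% confidence interval -0.60 to -0.34, limma adjusted p = 0.000975). UQCRB, a subunit beside the ubiquinone site, was at 6.64, 7.23 and 7.33 FPKM and then at 5.65, 5.75 and 6.14 FPKM, again without overlap (log2 fold change -0.27, limma adjusted p = 0.00894).

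The redox subunits of complex III, which carry the electrons, fell too. CYC1, cytochrome c1, had a log2 fold change of -0.24 (limma adjusted p = 0.000221), and UQCRFS1, the Rieske iron-sulfur protein, one of -0.20 (limma adjusted p = 0.0179). Of the core proteins, UQCRC1 fell by 0.20 on the log2 scale. UQCRC2, at 28.99, 28.1 and 28.3 FPKM and then 26.4, 27.1 and 26.3 FPKM, had a smaller change of -0.10, with close libraries and no overlap. UQCRH, the hinge protein and the most abundant of these mRNAs, was at 95.2, 104 and 108 FPKM and then at 85.9, 91.6 and 92.7 FPKM (log2 fold change -0.18, limma adjusted p = 0.0393). The call of UQCRH was lost without any 1 library except untreated replicate 1, that of UQCRC2 without IFNβ replicate 1 or 3, and that of UQCRFS1 without untreated replicate 3 or IFNβ replicate 1 or 2, the highest adjusted p in limma over the alternatives being 0.113, 0.119 and 0.0612. UQCR10 was called lower as well (-0.13), but that call was lost by limma-voom and without any 1 library except IFNβ replicate 1 (limma adjusted p of up to 0.134 over the alternatives).

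Of the 2 genes of complex III that were not called, UQCRQ was at 22.6, 28.3 and 28.9 FPKM and then at 23.8, 24.6 and 27.0 FPKM. Untreated replicate 1 held the lowest of these values, and the interval of the log2 fold change ran from -0.32 to 0.17. UQCRHL is an intronless near-copy of UQCRH, so reads may be split between them, and its log2 fold change of -0.10 (adjusted p = 0.486 in limma) is uncertain.

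Complex II has 4 genes, and 3 of them fell. Of all tested genes, 28.3% were lower at 1 FPKM or more and 41.6% at 10 FPKM or more. SDHB, the iron-sulfur subunit, was at 37.3, 37.0 and 37.7 FPKM in the untreated libraries and at 32.9, 32.2 and 35.1 FPKM after IFNβ. SDHC, a membrane anchor that holds the heme, was at 36.1, 35.4 and 37.5 FPKM and then at 30.0, 33.6 and 32.9 FPKM. SDHD, the other anchor, was at 34.8, 35.3 and 33.8 FPKM and then at 30.0, 29.01 and 31.6 FPKM. The groups did not overlap for these 3 genes, and the log2 fold changes were -0.16, -0.18 and -0.20 with limma adjusted p-values of 0.0127, 0.0291 and 0.00687. The exons of SDHC overlap CFAP126 on the other strand over 5.47% of their bases, and CFAP126 fell by 0.81 on the log2 scale. Those of SDHD overlap AP002884.3 on the same strand over 11.2% of their bases. The call of SDHC was lost without any 1 of the untreated libraries or without IFNβ replicate 3, the highest adjusted p in limma over the alternatives being 0.0897. SDHA, the flavoprotein with the succinate site, was at 1.70, 1.63 and 1.64 FPKM and then at 1.60, 1.67 and 1.62 FPKM. Its groups overlapped, and the interval of its log2 fold change ran from -0.17 to 0.13 (adjusted p = 0.837 in limma).

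Complex I held 9 lower genes of 34, with a median log2 fold change of -0.11 and a range from -0.32 to 0.17. This share, 26.5%, was no higher than that of all tested genes of at least 1 FPKM, of which 28.3% were lower. NDUFB6 of the membrane arm was at 25.1, 27.6 and 28.4 FPKM in the untreated libraries and at 20.8, 21.4 and 22.5 FPKM after IFNβ. The mean fell by 20.2% without overlap of the groups (log2 fold change -0.32, 95% confidence interval -0.45 to -0.20, limma adjusted p = 0.00441). NDUFB10, also of the membrane arm, was at 47.0, 53.5 and 57.8 FPKM and then at 40.2, 44.2 and 44.7 FPKM (log2 fold change -0.29, limma adjusted p = 0.0346). The call of NDUFB10 was lost when any library other than untreated replicate 1 was left out, and its limma adjusted p reached 0.104 over the alternatives. NDUFS5, the most abundant complex I mRNA, was at 103, 130 and 133 FPKM and then at 101, 97.6 and 106 FPKM. Here untreated replicate 1 lay within the range of the treated libraries, and the change of -0.25 was not called (adjusted p = 0.11 in limma).

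The core subunits of complex I are conserved from bacteria and carry its redox centres. Of these, NDUFS1 and NDUFV1 fell, each with a log2 fold change of -0.14. The median was -0.11 for the core and -0.09 for the 28 accessory subunits. Of the accessory genes 6 (21.4%) were lower, a share below the 28.3% of all tested genes of at least 1 FPKM. Besides NDUFB6 and NDUFB10 the 6 genes were NDUFB9 (-0.25), NDUFV3 (-0.25), NDUFA2 (-0.21) and NDUFAB1 (-0.19), the mitochondrial acyl carrier protein. The call of NDUFS1 was lost without any 1 library except untreated replicate 1, and that of NDUFA2 without IFNβ replicate 2 or 3, the highest adjusted p in limma over the alternatives being 0.102 and 0.0697. Among the genes of the complex that passed the level limit, the highest log2 fold changes were those of NDUFC1 at 0.17 and NDUFA11 at 0.12. NDUFC1 was at 6.46, 7.47 and 7.98 FPKM and then at 6.96, 8.998 and 8.84 FPKM, with overlapping groups. NDUFA11 was at 1.46, 1.02 and 1.22 FPKM and then at 1.37, 1.42 and 1.23 FPKM, also with overlap. Without untreated replicate 1, 15 genes of complex I were lower. By limma-voom 14 were, beside 20.2% of all genes tested.

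Complex IV had 1 lower gene of 10, beside 41.6% of all tested genes of at least 10 FPKM, a level that all 10 reached. This gene was COX5B, with a log2 fold change of -0.13 (limma adjusted p = 0.024). This call was lost without untreated replicate 2 or 3 or IFNβ replicate 1 or 3, with a limma adjusted p of up to 0.0905 over the alternatives. The median of the complex was -0.09 and the range ran from -0.21 to 0.06. COX8A, the most abundant mRNA of the complex, was at 157, 166 and 156 FPKM and then at 153, 150 and 148 FPKM, so that the groups did not overlap while the adjusted p was 0.0581 in limma. COX7C was at 43.4, 59.3 and 56.9 FPKM and then at 44.3, 44.9 and 47.9 FPKM, and COX6A1 at 26.7, 25.02 and 21.1 FPKM and then at 22.6, 22.7 and 21.1 FPKM. Neither was called, and in COX7C untreated replicate 1 was the lowest of all libraries.

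COX7B and NDUFA4 had the highest log2 fold changes of complex IV, at 0.02 and 0.06. COX7B was at 11.4, 15.1 and 15.3 FPKM and then at 13.7, 14.0 and 14.3 FPKM, and NDUFA4 was at 14.6, 16.3 and 17.3 FPKM and then at 15.4, 17.0 and 17.8 FPKM. The groups of both overlapped, and the value of untreated replicate 1 was the lowest in each. Without that library, 4 genes of complex IV were lower, and COX7B was among them at a log2 fold change of -0.12 (limma adjusted p = 0.0341). The changes of the complexes were not tested against each other.

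Summed over the genes of a complex, the FPKM of every IFNβ-treated library lay below the lowest untreated library for complexes II, III and V. The sum of complex III went from 382 ± 11.03 to 334 ± 6.59 FPKM, a difference of -12.5%. That of complex II went from 110 ± 0.626 to 97.4 ± 3.47 FPKM (-11.4%), and that of complex V from 873 ± 9.96 to 785 ± 11.5 FPKM (-10.1%; S.D., n = 3). The sums of complexes I and IV, which differed by -9.65% and -5.89%, overlapped between groups because untreated replicate 1 was low.

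Of the 10 matching genes under the limit of 1 FPKM, 4 were tested, with adjusted p-values in limma from 0.0537 to 0.979. The lowest adjusted p was that of NDUFA13, which was not called, at a log2 fold change of 0.35. Its level was higher in every IFNβ-treated library than in any untreated one. This rise exceeded 0.17, the highest log2 fold change of the 75 genes, and the limit kept NDUFA13 out of their counts. NDUFA7, NDUFV2 and COX7A1 were at -0.17, 0.07 and 0.02, with overlapping groups. NDUFV2, NDUFA13 and NDUFA7, core and accessory subunits of complex I, averaged 0.812, 0.874 and 0.324 FPKM, and COX7A1, the muscle isoform of a complex IV subunit, averaged 0.597 FPKM. The other 6 were COX6A2, COX6B2, COX7B2 and COX8C, isoforms known from muscle or testis, ATP5MGL, and the read-through gene ATP5MF-PTCD1, all under 0.1 FPKM on average. The lowest members just above the limit were NDUFA11 at 1.29, NDUFA9 at 1.35 and SDHA at 1.64 FPKM. Levels between genes depend on the exon length that the authors divided by, which ran from 421 to 19359 bases among the 75 genes, in the smallest whole-number solution.

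Of 5 tested subunits and partners outside the symbol pattern, 2 were lower, beside 28.3% of all tested genes of at least 1 FPKM. The median log2 fold change of the 5 was -0.18. COX4I1, the main isoform of subunit 4 of complex IV, was at 41.2, 44.8 and 44.9 FPKM in the untreated libraries and at 38.4, 40.9 and 40.2 FPKM after IFNβ. The groups did not overlap, and the log2 fold change was -0.13 (adjusted p = 0.0552 in limma). CYCS, the cytochrome c that carries electrons between complexes III and IV, fell by 0.18 on the log2 scale, and COX7A2L, which joins complexes III and IV, fell by 0.27. ATP5IF1, the inhibitor of the ATP synthase, was at -0.19 and NDUFA4L2 at -0.04, and the groups of both overlapped.

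Of the 13 subunits encoded in mitochondrial DNA, 7 were lower and 1, MT-CO1, was higher, with a median log2 fold change of -0.18. Of all tested genes of at least 10 FPKM, 41.6% were lower. MT-ND6, a complex I subunit and the sole one encoded on the light strand, fell by 0.57. Its values were 442, 602 and 622 FPKM in the untreated libraries and 360, 356 and 391.7 FPKM after IFNβ. The catalytic complex IV subunit MT-CO1 rose, with a log2 fold change of 0.21 (limma adjusted p = 0.0012). MT-CO2, of the same complex, was at 0.19 with higher values in every IFNβ-treated library than in any untreated one, but was not called (adjusted p = 0.117 in limma). Overlaps of the compact mitochondrial genes make single values uncertain where strand was not counted.

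Assembly factors, which insert cofactors or join subunits without staying in the complex, were lower for 20 of 53 genes and higher for 3, with a median log2 fold change of -0.12, beside 17.5% lower and 15.2% higher of all genes tested and 28.3% lower of those of at least 1 FPKM. LYRM7, which matures the Rieske protein for complex III, was at 8.50, 8.06 and 8.17 FPKM and then at 5.38, 5.36 and 4.71 FPKM, and fell by 0.67 on the log2 scale (limma adjusted p = 0.000318). Its client UQCRFS1 fell by 0.20. PET117, a complex IV factor, fell by 0.78 but rested on as few as 12 fragments in a library, and 62.4% of its exon bases overlap KAT14 on the same strand. SCO2, which brings copper to complex IV, rose by 1.31 on the log2 scale, from 0.380, 0.146 and 0.396 FPKM to 0.941, 0.754 and 0.902 FPKM. The whole of its exon bases overlap other entries on the same strand, TYMP among them, so fragments of the SCO2 locus cannot be assigned. TYMP, the thymidine phosphorylase gene, itself had a log2 fold change of 1.11. None of the 5 complex V factors was called by limma or limma-voom, and 1 was lower at an unadjusted p under 0.05.

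Among 12 regulators of respiratory genes, 8 were lower and none was higher by limma, with none higher at an unadjusted p under 0.05 and 1 higher by limma-voom. The shares of all tested genes were 17.5% lower and 15.2% higher, and 28.3% lower at 1 FPKM or more. NRF1, the factor whose motif was searched above, was at 6.27, 6.58 and 6.03 FPKM in the untreated libraries and at 4.41, 4.33 and 4.37 FPKM after IFNβ. The groups were far apart relative to their spread, and the log2 fold change was -0.51 (limma adjusted p = 0.000223). TFAM, which packages and transcribes mitochondrial DNA, was at 32.5, 33.3 and 32.2 FPKM and then at 29.03, 29.1 and 28.7 FPKM (log2 fold change -0.17, limma adjusted p = 0.001). GABPA and YY1 fell by 0.14 and 0.17. PPARGC1A, the coactivator PGC-1α, was at 0.322, 0.369 and 0.400 FPKM and then at 0.550, 0.412 and 0.474 FPKM, without overlap but with an adjusted p of 0.205 in limma. Among the 12 regulators it alone had a log2 fold change above 0 in the main fit, at 0.32.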

How the data were processed

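RNA of 6 HT1080 libraries was analysed from a table of FPKM that the authors computed per Ensembl gene and library. The submitters' processing notes name fastp, HISAT2, StringTie and GRCh38, while the annotation and strandedness are not given in the sources used here. Of the gene IDs, 42303 had a symbol of their own and 4436 were absent from GENCODE release 29, which gave locations and overlaps. Fragments and exon lengths were taken as the smallest whole numbers (tolerance 0.001 fragment) that give the deposited FPKM, found for 35302 of 35303 genes above 0; multiples of them would give the same FPKM.

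Libraries were compared with limma 3.58.1 (R 4.3.3; lmFit, eBayes with intensity trend, two-sided), using log2(FPKM + 0.1) of all genes whose mean reached 0.1 FPKM. FPKM are not counts; limma-voom on recovered fragments was an alternative. An exact permutation test of 3 against 3 cannot go below 0.1 and was not used. On simulated data for the same comparison (20298 genes), 58% of changes of 1.25-fold and 98% of changes of 2-fold were recovered. Of 179 calls 23 were false, but 0 of the 156 calls resting on 58 or more fragments. The simulation used a single dispersion of 0.00035 and no shift of a single library. Folds under 1.25, as most subunit genes had, were not simulated. Genes named with values by library were the 2 largest and 2 smallest fold changes and the most abundant gene of each complex, all of complex II and the c subunit genes; from other lists, called genes that moved by 0.5 or more on the log2 scale, and PPARGC1A, NRF1, TFAM and COX4I1. The members and lists were chosen with earlier results of these data known. Single values of some genes are not reported here.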

Additional observations from a re-analysis of the deposited data

How the results depend on the processing

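The median log2 fold change of the subunit genes stayed below 0 in all and in each complex under every alternative run. In some fits the median of all tested genes was below 0 too. It was -0.06 with quantile normalization and -0.07 among genes of at least 10 FPKM, where the subunit genes were at -0.13 in both. Without intensity trend, 17 genes were lower in all, 5 in complex I, 1 in II, 4 in III and 0 in IV. At an adjusted p under 0.01 the numbers were 17, 4, 1, 4 and 0, and with a minimum of 1 on the log2 scale they were 0 in all and in complexes I, II, III, IV and V. Median ratio scaling gave 22 lower genes in all, 5 in complex III and 0 in IV, with medians of -0.07 in all (-0.11 before), -0.07 in complex I, -0.13 in II, -0.15 in III, -0.05 in IV and -0.10 in V, while the median of all tested genes moved to 0.04. Quantile normalization made 1 gene of complex V higher, ATP5F1B at 0.08, with a median of -0.17 in complex V. Limma-voom gave 14 lower genes in complex I and 2 in IV, and 2 were lower in complex IV when genes under 1 or under 10 FPKM were left out. The replicate numbers did not pair the libraries (same-numbered libraries correlated at 0.05, -0.02 and 0.12), and with the replicate block 28 genes were lower, 0 in complex IV, and 1, NDUFC1 of complex I, was higher. Over all genes tested, leaving out 1 library in turn gave 3035 to 3259 lower and 2496 to 2785 higher genes. Among the subunit genes it gave 24 to 39 lower and 0 to 1 higher in all, with medians from -0.15 to -0.11. By complex it gave 5 to 15 lower and 0 to 1 higher in I (medians -0.14 to -0.08), 2 to 3 in II (-0.20 to -0.14), 5 to 7 in III (-0.21 to -0.17), 0 to 4 in IV (-0.11 to -0.06) and 10 to 11 in V (-0.18 to -0.11). The highest counts in all and in complexes I and IV came without untreated replicate 1, where COX7B was at -0.12, while it reached 0.10 without untreated replicate 3. Of the 31 lower genes, 17 were lower in every alternative of the fit and 14 were lost in at least 1, among them NDUFB10, SDHC, UQCRH and COX5B. Under these alternatives the causes were not tested.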
